A study of Mus musculus with 6 samples.

Results

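The 9 genes Tek, Tie1, Angpt1, Angpt2, Esam, Robo4, Pecam1, Emcn and Clec1a encode the Tie receptors, their angiopoietin ligands and surface proteins first known from blood vessels. They were chosen by name, each has 1 line in the authors' deposited table, and they make up 9 of its 22381 genes. RNA was sequenced from LSK cells, the bone marrow fraction without mature lineage markers that carries Sca-1 and c-Kit and contains stem cells of the blood and the multipotent progenitors that follow them. All 6 samples were from bone marrow of C57BL/6 mice that were 8 to 12 weeks old. By genotype label, 3 of them lacked Tgif1 (Tgif1-/-), a homeodomain repressor known from TGF-beta and retinoid signalling, and 3 were wild type (WT, Tgif1+/+). The labels give no other allele, agent or treatment, do not say which part of Tgif1 was removed, and do not name the animals behind each sample, so that separate animals cannot be assumed and the authors' p-values may rest on technical spread.

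The table has 1 value per group in FPKM, fragments scaled to transcript length and to the mapped total of the library, with no value per sample and no SD, and the depth is unknown. Tgif1 itself was at 88.6 FPKM in samples labelled Tgif1-/- and at 71.5 FPKM in wild-type samples in the authors' deposited table, with its test marked as failed. Every direction below is therefore one between groups as labelled. The gate markers Kit (193 and 202 FPKM) and Ly6a, which encodes Sca-1 (120 and 88.9 FPKM), were high in both groups, whereas Cd3e of T cells and Ms4a1 of B cells were under 1 FPKM in both. Of mature lineage markers, 1 of 7 tested was called, beside 0.662% of all tested genes. It was Cd79a of B cells, lower at 5.16 and 13.7 FPKM (Cuffdiff q = 0.0102 in the authors' deposited table). In pairs of values the samples labelled Tgif1-/- come first, and log2 ratios have them on top. In RNA from a mixed population, fewer cells of a type and less RNA per cell cannot be told apart.

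Tek (also called Tie2) and Tie1 are receptor tyrosine kinases. Angpt1 activates Tek, Angpt2 acts on the same receptor as a context-dependent antagonist or weak agonist, and Tie1, which binds neither ligand well on its own, modulates Tek. In vessels the system keeps endothelium stable. In bone marrow Tek is carried by blood stem cells, where Angpt1 signalling is known for its link to adhesion in the niche and to quiescence, the state named in the title of the study. Esam, Robo4, Pecam1 and Emcn are endothelial surface proteins that are also used to mark or isolate blood stem cells.

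All 9 genes were at or above 1 FPKM in both groups, and their levels spread widely. Angpt1 was highest at 118 and 110 FPKM, a mean above that of 94.5% of the genes in the table. Pecam1 followed at 54.3 and 44.9 FPKM and Emcn at 20.7 and 22.0 FPKM. Robo4 was next at 8.60 and 8.86 FPKM, and then Tek at 7.96 and 7.55 FPKM. These genes had the same order in both groups, while the order of those that follow differed: Esam (6.96 FPKM) stood above Angpt2 (6.27 FPKM) and Tie1 (5.23 FPKM) in samples labelled Tgif1-/-, and below Angpt2 (6.99 FPKM) and Tie1 (6.49 FPKM), at 5.09 FPKM, in the wild type. Clec1a was lowest in both groups at 1.39 and 2.07 FPKM. With no spread between samples, whether neighbours in this order differ was not tested.

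**Figure D1:**
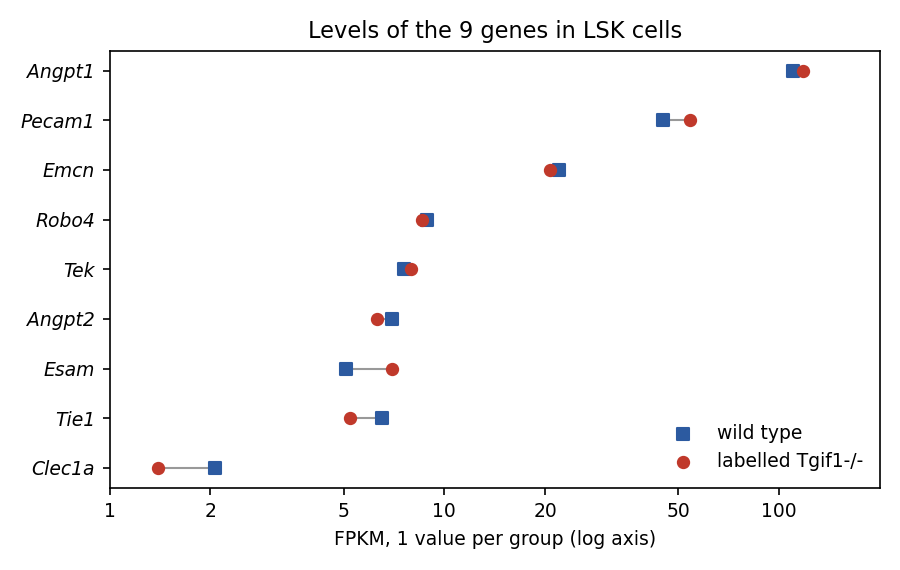
FPKM of each of the 9 genes (log axis) in the wild-type group (blue squares) and the group labelled Tgif1-/- (red circles), 1 value per group in the authors' deposited table, with grey lines joining the values of a gene. Angpt1 stands highest at 118 and 110 FPKM and Clec1a lowest at 1.39 and 2.07 FPKM, and Clec1a and Esam have the longest lines.

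No member was called different between the groups. The authors' deposited table marks 7 of the 9 as tested by Cuffdiff and 2, Pecam1 and Robo4, as failed. Of the 7, 0 had a q at or under 0.05, the rule for a call, and 0 had an unadjusted p under 0.05. For all tested genes the shares were 0.662% (71 of 10730) by q and 5.41% (580 of 10730) by unadjusted p, so a count of 0 among 7 genes is close to the background. Split by direction, 0.289% of tested genes were called higher and 0.373% lower, and 1.85% were higher and 3.55% lower at an unadjusted p under 0.05. The smallest p of a member in the authors' deposited table was 0.0864, for Clec1a, and q was 1.00 for each of the 7. Of the tested members 3 had a higher and 4 a lower value in samples labelled Tgif1-/-. Their median log2 ratio was -0.08, beside a median of -0.03 over the 10683 tested genes with values above 0 in both groups. Of those 10683 genes 57.4% were lower, the share beside which the splits by direction here and in the lists below stand. All 9 differed by less than 1.5-fold, as did 90.4% of those tested genes.

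The size of difference that these data could show varied among the members. Dividing the log2 ratio by the deposited test statistic gives the standard error that the authors' model implies, which is not a spread measured between samples. It ran from 0.13 for Emcn to 0.45 for Tek. The largest p of any called gene was 0.000318, which corresponds to a ratio of 3.60 implied errors. At that size Emcn would have needed a 1.38-fold difference to be called, Tie1 1.62-fold, Angpt1 1.66-fold, Angpt2 1.99-fold, Esam 2.22-fold, Clec1a 2.30-fold and Tek 3.04-fold. For Tek a doubling would not have been called, whereas for Emcn a smaller difference would have been. The 95% interval from the implied error stayed within a 2-fold difference in either direction for 5 of the 7 tested members, and reached past it for Esam and Clec1a.

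**Figure D2:**
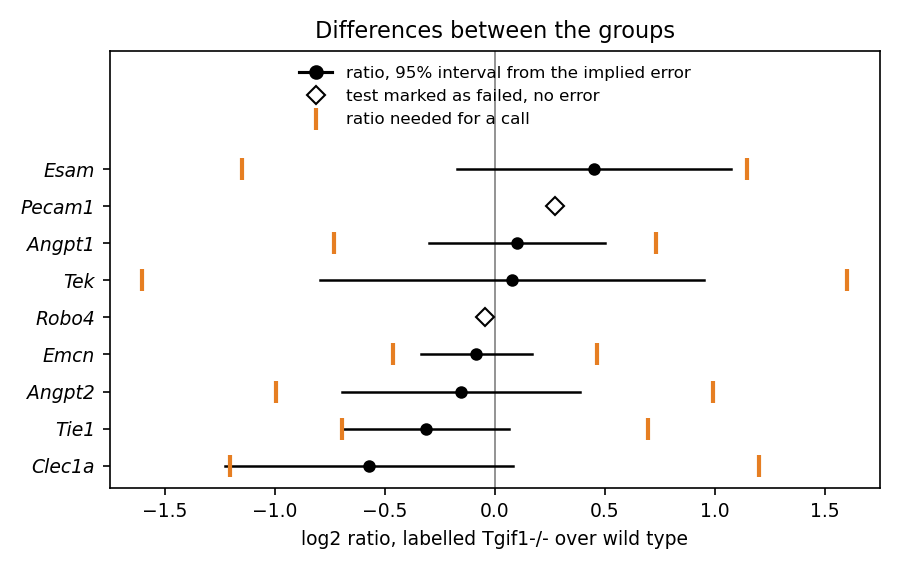
Log2 ratio of the group labelled Tgif1-/- over the wild type for each gene (points), with 95% intervals from the error implied by the authors' test (bars) and the ratio needed for a call at that error (orange ticks). Open diamonds are genes whose test failed, which have no error. All 7 intervals include 0, and no point reaches its orange tick.

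Among the receptors, Tek (ENSMUSG00000006386, chromosome 4, positions 94405980 to 94541667 in the table, on an unnamed mouse build) stood at 7.96 and 7.55 FPKM. The values were nearly level, with a log2 ratio of 0.08, an implied standard error of 0.45 and p = 0.863 by Cuffdiff in the authors' deposited table. Its 95% interval ran from -0.80 to 0.95, the widest interval among the tested members, and its error of 0.45 lay above the median of 0.28 for tested genes of like expression. Tie1 (ENSMUSG00000033191, chromosome 4, positions 118143796 to 118162666) was lower in samples labelled Tgif1-/-, at 5.23 and 6.49 FPKM, without being called. Its log2 ratio was -0.31, and the implied standard error was 0.19 (95% interval -0.69 to 0.07, p = 0.105 by Cuffdiff in the authors' deposited table). Tek exceeded Tie1 by 1.52 times in samples labelled Tgif1-/- and by 1.16 times in the wild type. The change in that balance was 0.39 on the log2 scale, with a 95% interval of -0.56 to 1.34 if the errors of both genes are taken as independent, so no shift in the balance of the receptors was detectable. Both are protein-coding genes with up to 23 exons in a transcript of GENCODE M21.

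Transcripts of both ligands were found in the same RNA as those of the receptors, with Angpt1 far above Angpt2. Angpt1 (ENSMUSG00000022309, chromosome 15, positions 42256273 to 42508523) stood at 118 and 110 FPKM, about 15 times the level of Tek in either group (14.9 and 14.6 times). Its log2 ratio was 0.10, and the implied standard error was 0.20 (95% interval -0.30 to 0.50, p = 0.616 by Cuffdiff in the authors' deposited table). The interval bounds a rise at 1.41-fold and a fall at 1.23-fold. Angpt2 (ENSMUSG00000031465, chromosome 8) stood at 6.27 and 6.99 FPKM, a log2 ratio of -0.15 and an implied standard error of 0.28 (95% interval -0.70 to 0.39, p = 0.575 by Cuffdiff in the authors' deposited table). Angpt1 exceeded Angpt2 by 18.9 times in samples labelled Tgif1-/- and by 15.8 times in the wild type, a change of 0.26 on the log2 scale with a 95% interval of -0.42 to 0.93. That difference between the groups lay within the error.

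The listed position of Angpt2, 18595131 to 18803189, is also that of Mcph1, a gene of DNA damage response and brain size. In GENCODE M21 (GRCm38) Angpt2 spans 51.3 kb inside Mcph1 on the opposite strand, and the exons of the pair share 0 bases. Mcph1 was listed at 27.1 and 27.9 FPKM (log2 ratio -0.04). The labels do not say whether counting used strand, so the part of Mcph1 reads in the value of Angpt2 was not tested.

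No other gene of the Tie pathway was called. Of 23 listed genes of the pathway, the 4 members included, 14 were tested, 0 were called and 0 had an unadjusted p under 0.05, beside backgrounds of 0.662% and 5.41%. Among the 14, 6 were higher and 8 lower, with a median log2 ratio of -0.02. The third angiopoietin, Angpt4, was at 0.150 and 0.0750 FPKM, and Ptprb, the phosphatase that acts on Tek in endothelium, was at 0.0240 and 0.0504 FPKM, both with too few reads to test. Of genes acting downstream, Dok2, an adaptor that binds activated Tek, stood at 19.6 and 24.4 FPKM (Cuffdiff p = 0.347 in the authors' deposited table). The regulatory subunit Pik3r1 of PI3-kinase stood at 247 and 251 FPKM, the adaptor Grb2 at 73.1 and 72.0 FPKM, and Rasa1, a GTPase-activating protein whose test failed, at 84.5 and 89.0 FPKM. The kinase Akt1 was at 42.4 and 46.1 FPKM and its target Foxo1 at 8.83 and 9.42 FPKM. The largest ratio of the list belonged to Grb7, an adaptor at only 0.605 and 0.131 FPKM, whose implied standard error was 1.80 (p = 0.221 by Cuffdiff in the authors' deposited table).

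Esam, an immunoglobulin-type adhesion protein of endothelial junctions, platelets and blood stem cells, had the highest positive ratio of the set. It stood at 6.96 and 5.09 FPKM, 1.37-fold higher in samples labelled Tgif1-/-. The log2 ratio was 0.45, and the implied standard error was 0.32 (95% interval -0.17 to 1.08, p = 0.157 by Cuffdiff in the authors' deposited table), and the gene was not called. A ratio of that size or more in either direction was not rare, since 86.2% of tested genes had a smaller one. Pecam1, an adhesion and inhibitory signalling receptor of endothelium, platelets and leukocytes (ENSMUSG00000020717, chromosome 11, positions 106515531 to 106611942), was also higher, at 54.3 and 44.9 FPKM. That is a 1.21-fold difference (log2 ratio 0.27) with no error, because the authors' deposited table marks its test as failed. Tested genes of like expression, with means of 43.0 to 56.7 FPKM, had a median implied standard error of 0.19. The tests of 30.5% of genes in that range failed.

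Esam and Pecam1 are also made by megakaryocytes, the platelet precursors, and megakaryocyte markers mostly had higher values in the same group. Of 16 tested markers 11 were higher and 5 lower in samples labelled Tgif1-/-, with a median log2 ratio of 0.33. The summed level of all 20 markers, with 0 listed at a value of 0, was 395 and 330 FPKM. Most of the difference between these sums came from Pf4. The median level of the 20 went the other way, at 4.66 and 5.39 FPKM. At an unadjusted p under 0.05, 3 of the 16 were higher and 1 was lower, where the shares over all tested genes were 1.85% and 3.55%. Pf4, a platelet chemokine, stood at 108 and 59.7 FPKM, and Itga2b, the platelet integrin alpha chain, at 54.0 and 35.2 FPKM, each with q = 0.102 in the authors' deposited table and so not called. Rab27b, a GTPase of platelet granule release, at 4.42 and 3.10 FPKM, was the 1 called of the 16 (Cuffdiff q = 0.0141 in the authors' deposited table), beside 0.662% of all tested genes. That call ended when each error was set to at least the median of genes at like expression, with an adjusted p of 1.00. Ppbp, another platelet chemokine, went the other way at 4.61 and 9.54 FPKM (Cuffdiff q = 0.444 in the authors' deposited table). The part of megakaryocyte transcripts in the values of Esam and Pecam1 was not tested.

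Among 23 other genes of junctional and adhesion proteins, most of them immunoglobulin-type like Esam and Pecam1, 17 were tested. Of these 0 were called, beside 0.662% of all tested genes, with 5 higher and 12 lower and a median log2 ratio of -0.21. At an unadjusted p under 0.05, 3 were lower: the poliovirus receptor relatives Pvr (5.16 and 7.62 FPKM) and Pvrl3 (0.905 and 2.09 FPKM), and Cd177, a binding partner of Pecam1, at 0.201 and 0.624 FPKM (p = 0.0187, 0.0150 and 0.0243 in the authors' deposited table). Over all tested genes, 3.55% were lower at an unadjusted p under 0.05. With each error set to at least the median of genes at like expression, Pvr had an unadjusted normal p of 0.0660. Pvrl3 and Cd177 stayed under 0.05. The junctional adhesion molecules F11r (6.80 and 8.21 FPKM), Jam2 (1.71 and 1.38 FPKM) and Jam3 (2.15 and 2.97 FPKM) had ratios on both sides of 0. The most abundant genes of the list were Cd47, which protects cells from phagocytosis, at 454 and 489 FPKM, and Icam2, an integrin ligand whose test failed, at 63.3 and 57.6 FPKM. Alcam, a homophilic adhesion molecule whose test also failed, was at 24.7 and 32.7 FPKM.

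Robo4, an endothelial relative of the Slit receptors, was nearly level between the groups. It stood at 8.60 and 8.86 FPKM, a log2 ratio of -0.04 with no error because the test failed. Tested genes of like expression had a median implied standard error of 0.28. Robo4 was the only Robo gene at or above 1 FPKM: Robo3 was at 0.542 and 0.570 FPKM, Robo1 at 0.156 and 0.0787 FPKM, and Robo2 was listed at 0 in samples labelled Tgif1-/- and at 0.0161 FPKM in the wild type. The Slit ligands were also under 1 FPKM, with Slit1 at 0.172 and 0.213 FPKM, Slit2 at 0.422 and 0.354 FPKM, and Slit3 at 0.00912 and 0.0263 FPKM. Of 18 genes of the Robo and Slit pathway 8 were tested and 1 was called, beside a background of 0.662%. It was Srgap3, a GTPase-activating protein that acts after Robo receptors, higher at 11.4 and 9.91 FPKM (log2 ratio 0.20, implied standard error 0.05, q = 0.00806 in the authors' deposited table). With its error set to at least the median of genes at like expression, 0.26, the adjusted p was 1.00 and the call ended. The actin-linked proteins Pxn (59.6 and 62.7 FPKM) and Vasp (20.6 and 22.3 FPKM) and the kinase Abl1 (38.7 and 43.9 FPKM) were not called.

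Robo4 (ENSMUSG00000032125) and Esam (ENSMUSG00000001946) lie close together on chromosome 9, at positions 37209482 to 37221608 and 37335663 to 37345904, a gap of 114 kb. Their log2 ratios were -0.04 and 0.45, a difference that was not tested because the ratio of Robo4 has no error. The nearest listed genes were level or lower: Robo3 after Robo4 (log2 ratio -0.07), BC024479 before Esam at 5.84 and 6.15 FPKM, and Vsig2, an Ig-type relative that begins 0.935 kb after Esam, at 4.95 and 5.72 FPKM (log2 ratio -0.21, p = 0.400 in the authors' deposited table). On the other side of Robo4, Hepacam was listed at 0 and 0.0663 FPKM.

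Emcn, endomucin, a mucin-type glycoprotein that opposes leukocyte adhesion in veins and marks blood stem cells, had the smallest implied error of the tested members. It (ENSMUSG00000054690, chromosome 3, positions 137004031 to 137095149) stood at 20.7 and 22.0 FPKM. The log2 ratio was -0.08, and the implied standard error was 0.13 (p = 0.514 by Cuffdiff in the authors' deposited table). The 95% interval of -0.34 to 0.17 bounds a fall at 1.26-fold and a rise at 1.12-fold. This error lay below the median of 0.21 for tested genes of like expression, and with 0.21 as the least error the adjusted p was likewise 1.00, and Angpt1, at 0.20, then had the smallest error. A list of 14 genes held Emcn, other sialomucins and related glycoproteins, and also Tnfrsf1b, a TNF receptor that is not a sialomucin (25.3 and 27.8 FPKM). Of the 14, 9 were tested, 0 were called and 0 had an unadjusted p under 0.05, beside backgrounds of 0.662% and 5.41%. With Tnfrsf1b counted, 3 were higher and 6 lower, with a median log2 ratio of -0.08. Cd34, the sialomucin that divides LSK cells into stem and progenitor fractions, was at 314 and 316 FPKM with a failed test. Cd24a was at 380 and 437 FPKM, Cd164 at 142 and 148 FPKM, Spn (CD43) at 126 and 112 FPKM and Parm1 at 0.975 and 1.33 FPKM.

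Clec1a, a C-type lectin receptor of endothelium and myeloid cells (ENSMUSG00000033082, chromosome 6), had the largest ratio of the set and the lowest level. It stood at 1.39 and 2.07 FPKM, 1.49-fold higher in the wild type. The log2 ratio was -0.57, and the implied standard error was 0.33 (95% interval -1.23 to 0.08, p = 0.0864 by Cuffdiff in the authors' deposited table). At this low level the ratio shrank to -0.36 with a pseudocount of 1. The listed position of Clec1a, 129339308 to 129402018, is shared with Clec1b and Clec9a, its neighbours in the lectin cluster. Clec1b, the podoplanin receptor of platelets, was at 1.06 and 0.755 FPKM and Clec9a, a dendritic cell receptor, at 2.69 and 3.17 FPKM, neither called, so genes of 1 listed block had ratios of opposite sign. How reads were divided among the 3 genes was not tested.

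Of 16 other genes of the surrounding lectin cluster, 12 were tested and 0 were called, beside 0.662% of all tested genes. Of the 12, 4 were higher and 8 lower, with a median log2 ratio of -0.20. At an unadjusted p under 0.05, Klrk1, which encodes the NKG2D receptor of NK cells, was higher at 1.39 and 0.381 FPKM (Cuffdiff p = 0.00463 in the authors' deposited table). Klrd1, its relative CD94, was lower at 3.12 and 5.27 FPKM (Cuffdiff p = 0.0464 in the authors' deposited table). Clec12a, an inhibitory myeloid lectin and the one with the highest level, was lower at 56.3 and 67.6 FPKM (Cuffdiff p = 0.0307 in the authors' deposited table). Over all tested genes, 1.85% were higher and 3.55% lower at an unadjusted p under 0.05. With each error set to at least the median of genes at like expression, Clec12a had an unadjusted normal p of 0.172. Klrk1 and Klrd1 stayed under 0.05. Clec2d, at 19.4 and 21.5 FPKM, and Gabarapl1, an autophagy gene within the cluster at 65.1 and 64.3 FPKM, had larger p-values.

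**Figure D3:**
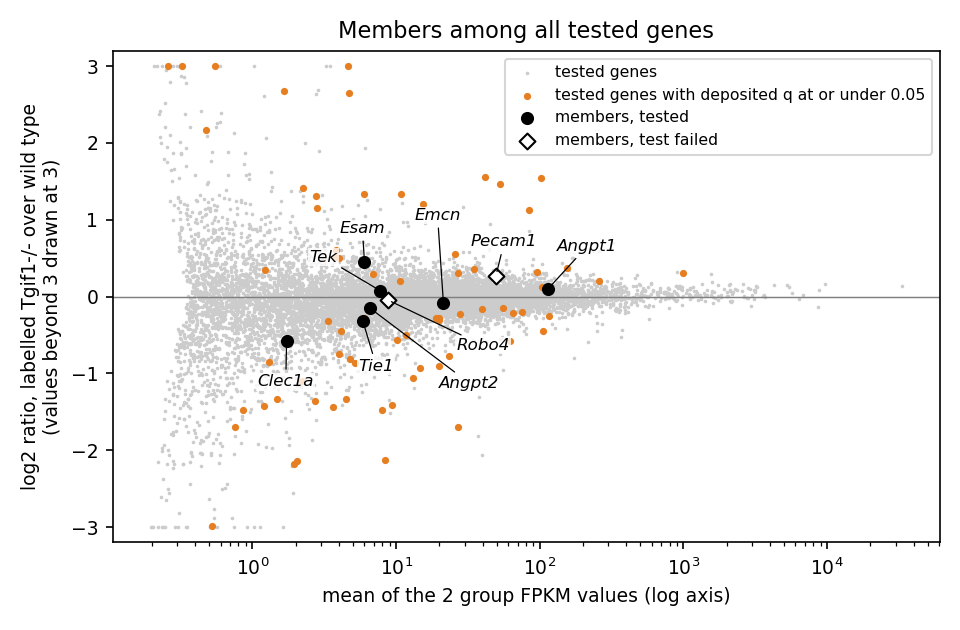
Log2 ratio (values beyond 3 in either direction drawn at 3) against the mean of both group values in FPKM (log axis) for tested genes whose mean reached 0.1 FPKM (grey) and those with a deposited q at or under 0.05 (orange). The 7 tested members (black) and the 2 with failed tests (open diamonds) lie within the grey cloud, between -0.57 for Clec1a and 0.45 for Esam.

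Most defining markers of mature endothelium were low in both groups. Of 18 markers listed as seldom made by blood cells, 17 were under 1 FPKM in both groups. Cdh5, the junctional cadherin of endothelium, stood at 0.0413 and 0.0980 FPKM, the VEGF receptor Kdr at 0.183 and 0.196 FPKM, the tight junction gene Cldn5 at 0.0620 and 0.0727 FPKM, and Plvap of fenestrated vessels at 0.545 and 0.499 FPKM. Sox17, Lyve1 and Mmrn2 were listed at 0 in samples labelled Tgif1-/- and under 0.1 FPKM in the wild type. The summed level of the 17 was 3.49 and 3.34 FPKM, while that of the 9 members was 230 and 214 FPKM, or 111 and 104 FPKM without Angpt1. The exception was Eltd1 (now Adgrl4), an adhesion G protein-coupled receptor known from vessels, at 1314 and 1290 FPKM, above 99.5% of the genes in the table, and with it the list sums to 1317 and 1294 FPKM. Which cells gave the Eltd1 transcripts, and the part of endothelial cells in the values of the members, was not tested. In this list 5 were tested and 0 called, beside 0.662% of all tested genes. Stab2, a scavenger receptor of sinusoids, was at 0.446 and 0.0576 FPKM with an unadjusted Cuffdiff p = 0.0245 in the authors' deposited table. Sele and Sox18 had larger p-values.

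**Figure D4:**
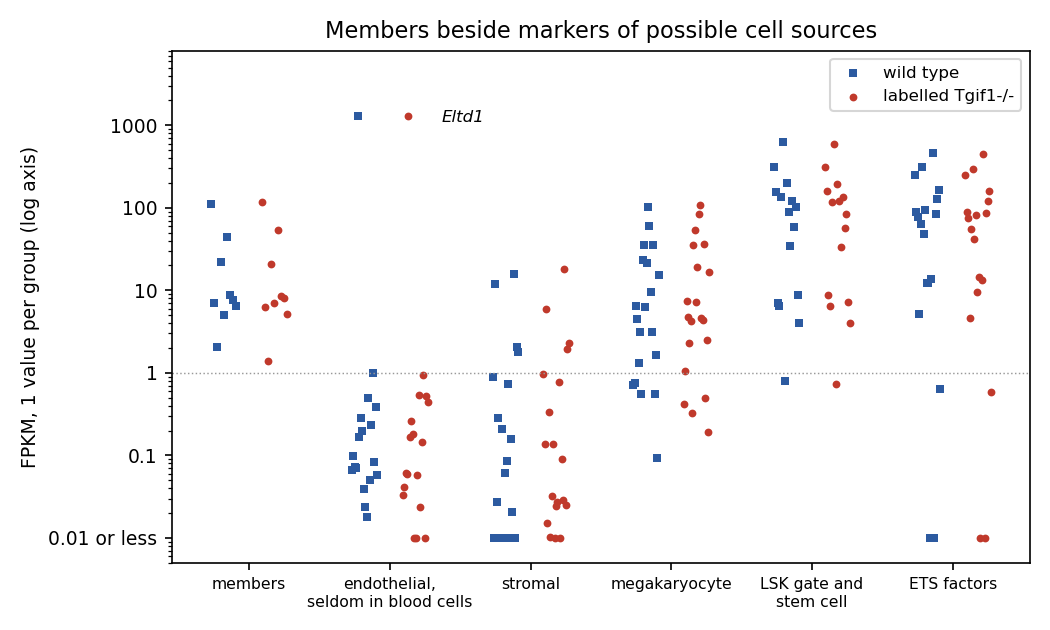
FPKM (log axis, with values at or under 0.01, zeros included, drawn at 0.01) of the 9 members and of 5 fixed marker lists, in the wild-type group (blue squares) and the group labelled Tgif1-/- (red circles), 1 point per gene. All members lie above the dotted line at 1 FPKM, whereas 17 of 18 endothelial markers seldom made by blood cells lie below it in both groups, with Eltd1 as the exception.

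A wider list of 43 endothelial genes, which includes many that blood stem cells share, held 20 tested genes, 10 higher and 10 lower, with a median log2 ratio of -0.03. Among the 20, 1 was higher and 2 were lower at an unadjusted p under 0.05, where the shares over all tested genes were 1.85% and 3.55%. Called was 1 of the 20, beside 0.662% of all tested genes. It was Egfl7, a secreted protein of vessels and blood progenitors, lower in samples labelled Tgif1-/- at 88.3 and 121 FPKM (log2 ratio -0.45, Cuffdiff q = 2.15e-08 in the authors' deposited table). Its implied standard error was 0.07, against a median of 0.18 for genes of like expression, and with that median as the least error its adjusted p was 1.00. In size this ratio equals that of Esam, which had an error of 0.32 and was not called. Others in the list had levels like those of the members: Cd93 at 149 and 165 FPKM, Eng, a TGF-beta co-receptor whose test failed, at 68.3 and 70.7 FPKM, Vwf at 16.5 and 15.2 FPKM, and Procr, the protein C receptor used to isolate stem cells, at 7.32 and 8.82 FPKM.

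ETS family transcription factors, several of which act on endothelial and stem cell genes, differed widely in level, and 3 of 18, Etv2, Fev and Spib, were under 1 FPKM in both groups. Of the 18, 10 were tested and 0 were called, beside 0.662% of all tested genes. Of the 10, 3 were higher and 7 lower, with a median log2 ratio of -0.04. Erg was lower at 81.6 and 93.3 FPKM (p = 0.0147, q = 0.540 in the authors' deposited table), and Fli1 was at 87.4 and 83.8 FPKM. Etv6 stood at 452 and 459 FPKM, Elf1 at 250 and 249 FPKM, Elk4, whose test failed, at 298 and 312 FPKM, and Ets2 at 14.7 and 12.3 FPKM.

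Markers of marrow stroma, another source of Angpt1, were mostly low. Of 19, 15 were under 1 FPKM in both groups, 6 of these with a value of 0 in at least 1 group, and their total was 31.0 and 34.1 FPKM. Of 5 tested, 0 were called, beside 0.662% of all tested genes. Most of the total came from Pdgfrb, with a failed test, at 18.2 and 15.9 FPKM and from Bgn, a matrix proteoglycan, at 5.93 and 11.9 FPKM (Cuffdiff q = 0.0987 in the authors' deposited table), with Vcam1 at 2.29 and 1.78 FPKM. The part of stromal cells in the level of Angpt1 was not tested. Stem cell markers and gate genes gave 0 calls among 8 tested of 15, close to the 0.662% called over all tested genes. The median log2 ratio of the 8 was -0.01, and the transcription factor Hlf, whose test failed, was highest of the 15 at 599 and 632 FPKM.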

How the data were processed

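Per the submitters' processing notes the reads went through TopHat and Cuffdiff, with no version given, and the authors deposited 1 FPKM value per group and gene. The deposited table also holds, per the file headers, a log2 fold change (wild type on top, turned round here), a test statistic, a p-value and a q-value. A Benjamini-Hochberg adjustment over the 10730 tested genes returned the q-values, and a two-sided normal p of the statistic returned the p-values (10683 of 10683 genes above 0 in both groups, within 0.001), so the ratio of log2 fold change to statistic was used as the implied standard error. Called genes are those marked as tested with a q at or under 0.05. Failed genes keep FPKM values but have no test.

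The 9 members and the 12 gene lists (213 genes, 211 of them in the table) were chosen with earlier results of these data known. Named genes were the members, called genes of a list or otherwise its 2 smallest p-values, its 3 highest levels, and neighbours. Others (Angpt4, Ptprb, Akt1, Foxo1, Robo1 to Robo3, Slit1 to Slit3, F11r, Jam2, Jam3, Cd177, Klrd1, Ppbp, Fli1, Etv2, Fev, Spib, Eng, Vwf and the low endothelial and lineage markers) were added after their values were seen. No set test was run. The error floor set each error to at least the median of tested genes in the same of 20 expression bins. The notes name hg19, a human build, while identifiers are mouse. Which mouse build the positions follow is not stated in these sources, and starts count from 1. The position of Tek is not that of GRCm38: its listed start is 94405980, and its start in GENCODE M21 is 94739289. The start of Mcph1, 18595131, is the same in both. Calculations used Python 3.11.15, pandas 2.3.3, numpy 2.4.6 and scipy 1.17.1, and were tested on simulated data first.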

Additional observations from a re-analysis of the deposited data

How the results depend on the processing

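The count of members called was 0 under each alternative run. These were q thresholds of 0.01 and 0.1, minimum folds of 1.5 and 2, minimum levels of 1 and 5 FPKM in a group, and the error floor. With 0 called at the start, only the q threshold of 0.1 could have added a member. The other runs can only remove calls of members, so their counts of 0 were fixed by construction. All 34 recomputed ratios of the members, with pseudocounts of 0.1 and 1, centring on the tested genes' median, or the error floor, kept their direction. A pseudocount added to both values cannot change a direction, and the error floor leaves the ratio as it was. Centring alone could therefore have turned a ratio round. Of the 34 only the ratios under the error floor come with a test, and each of the 7 tested members stayed uncalled. The median of the tested members ran from -0.05 when centred to -0.08, and was -0.04 with the failed members included, an alternative chosen after seeing the data. The number of all genes called, 71, was 99 at a q of 0.1, 39 at a q of 0.01, 42 with a minimum fold of 1.5, 34 with a minimum fold of 2, 46 when a group had to reach 5 FPKM and 22 under the error floor. The rise under a looser and the fall under stricter thresholds follow from their construction. No paired analysis was possible because the samples of the groups share no numbers and the table used here has 1 value per group, and for that reason no replicate could be left out. The depth is unknown, so how far it limits each member could not be read.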

Other observations

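The following genes come from the wider list of endothelial genes and leave out Egfl7, the 1 gene called there. Myct1, a target of ETS and Gata factors in endothelium and blood stem cells, stood at 32.0 and 30.0 FPKM (log2 ratio 0.09, implied standard error 0.21). Mmrn1, a platelet and endothelial matrix protein, stood at 19.2 and 21.3 FPKM, and Ecscr, an endothelial surface protein, at 3.42 and 3.13 FPKM. Selp, P-selectin, and Thsd1, both with failed tests that allow no call, were at 36.6 and 35.1 FPKM and at 17.0 and 17.6 FPKM. S1pr1, the sphingosine-1-phosphate receptor that guides cell exit from marrow, was at 7.62 and 6.03 FPKM with p = 0.0956 by Cuffdiff in the authors' deposited table. These genes were chosen after their values were seen, so that none of those tested being called is not a result about them.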
